A study of Mus musculus with 2 samples.

Results

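The Ly6 genes examined here are Ly6a, Ly6c1, Ly6d, Ly6e, Ly6g and Ly6i, 6 of 24203 genes measured, found by gene name in the annotation of the arrays. They were represented by 7 transcript rows, 2 for Ly6a and 1 for each of the others. The cells were LT-HSCs (long-term haematopoietic stem cells), sorted from marrow of 8-week-old C57BL/6 mice. One group was wild type for cia-cGAS, a circular RNA, and the other was a cia-cGAS knockout. Each group had 1 array, so no difference below has a replicate check, no test between groups was run, and every value describes these samples. The sort markers, the number of cells, the pooling of animals and the design of the deletion are not stated in the labels, and no row was matched to the circular RNA, so the deletion could not be checked.

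Ly6 proteins are small, cysteine-rich surface proteins of the Ly6/uPAR fold, most of them held in the membrane by a lipid anchor. Many mouse members lie side by side on chromosome 15 and mark blood cell types. SCA-1, the product of Ly6a, is part of the standard gate for mouse blood stem cells, and interferon is known to induce it on marrow cells. LY6G marks neutrophils, LY6C marks monocytes and other cells, and LY6D marks early B lineage cells.

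Of the 6 genes, 5 were read above background on both arrays, and all 5 were higher in the knockout, by 1.32-fold to 2.13-fold. The difference, knockout minus wild type, ran from 0.40 for Ly6a to 1.09 for Ly6i on the log2 scale, with a median of 0.69. Ly6d was below background on both arrays. Background was a floor on each array, the 95th percentile of 1049 rows of smell and taste receptor genes, at intensities of 541 (wild type) and 497 (knockout), or 9.08 and 8.96 as log2 values. Above both floors were 9319 genes, whose median difference was -0.04. A difference above 0 was found for 46.4% of them. Only Ly6i reached 2-fold among the 5 detected members, where 5.33% of all genes above both floors were at least 2-fold higher. At least 2-fold lower were 4.16% of all these genes and 0 of the 5.

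**Figure D1:**
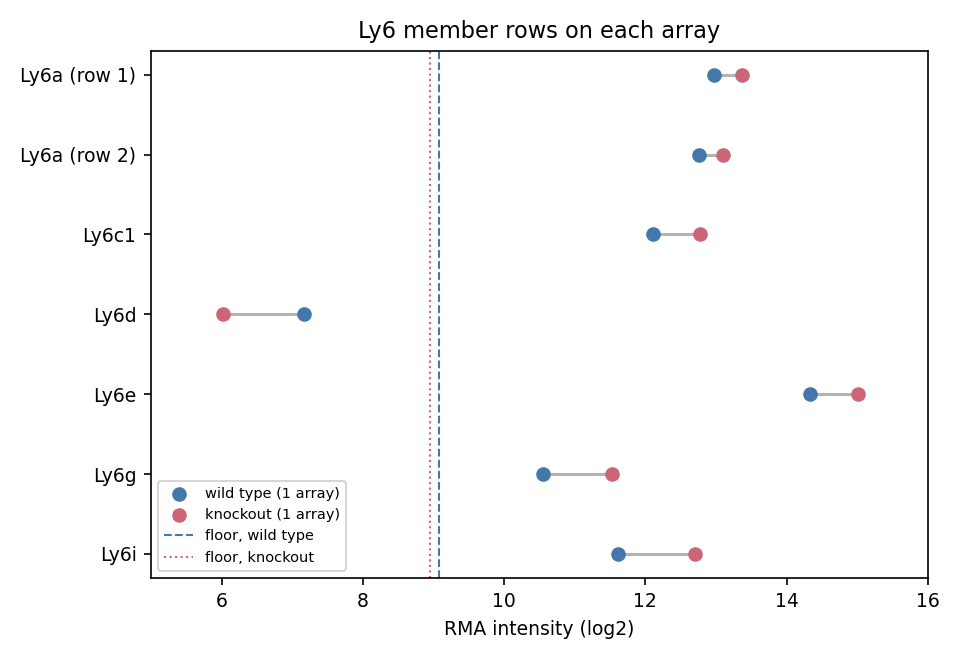
Log2 RMA intensity (x axis) of each Ly6 row on the wild-type array (blue) and the knockout array (red), with the background floor of each array as a vertical line. There is 1 array per group and no error bar. The 6 rows of Ly6a, Ly6c1, Ly6e, Ly6g and Ly6i lie above both floors with the knockout to the right, and the row of Ly6d lies below both.

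Ly6a encodes SCA-1, the stem cell sort marker. Its brighter row had an intensity of 8021 in wild-type cells and 10587 in knockout cells, log2 values of 12.97 and 13.37. The row was 1.32-fold higher in knockout cells (gene ID 110454, MM9 build, chromosome 15 from 74825306 to 74828318). The other row, at the same position, had intensities of 6963 and 8789 and was 1.26-fold higher. Both rows of Ly6a were thus higher in the knockout, with differences of 0.40 and 0.34. For scale, rows of 1 gene differed from each other with a pooled SD of 0.37 in this difference, over 2940 genes with at least 2 rows above both floors. The difference of Ly6a is about as large as that spread. The spread is between rows on the same arrays, so it does not measure variation between animals, sorts or arrays. Of the 9319 genes above both floors, 17.7% had a difference at least as large as that of the brighter Ly6a row. Among the 724 genes whose mean level lay within 0.5 log2 units of it, 20.6% did. This was the smallest difference among the 5 detected members.

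Ly6e encodes a broadly expressed Ly6 protein, also known as SCA-2, which is itself induced by interferon and affects the entry of several viruses. It read an intensity of 20550 in wild-type and 33074 in knockout cells, a 1.61-fold higher value (gene ID 17069, chromosome 15 from 74786097 to 74789761). The log2 values were 14.33 and 15.01, near the top of the scale of these arrays, 15.89 and 15.84, where differences can be compressed. A difference of at least this size, 0.69, was found for 9.13% of genes above both floors.

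Ly6c1 encodes an LY6C protein, carried by monocytes, some T cells, plasma cells and endothelial cells. It read 4419 in wild-type and 6985 in knockout cells as intensities, 1.58-fold higher (gene ID 17067, chromosome 15 from 74875444 to 74879260). Its difference of 0.66 was reached or passed by 9.53% of genes above both floors. Ly6c2, a neighbouring gene that is the main LY6C gene of monocytes, was 1.77-fold higher, with log2 values of 11.64 and 12.46. Both LY6C genes were therefore higher in the knockout array.

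Ly6g, the neutrophil marker gene recognised with LY6C by the Gr-1 antibody, had intensities of 1495 (wild type) and 2955 (knockout) (gene ID 546644, chromosome 15 from 74986074 to 74990086). This 1.98-fold difference lay just under the 2-fold mark. Ly6i, a little-studied gene between Ly6e and Ly6a, had intensities of 3129 and 6654 and lay just over it, at 2.13-fold (gene ID 57248, chromosome 15 from 74810242 to 74813860). On the log2 scale the differences were 0.98 and 1.09. Differences as large as that of Ly6g were found for 5.49% of genes above both floors, and as large as that of Ly6i for 4.68%. Ly6g and Ly6i thus had the largest differences of the members, but they fell on opposite sides of the mark by small margins.

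Ly6d, the B lineage gene, had intensities of 143 (wild type) and 64.8 (knockout), far below both floors (gene ID 17068, chromosome 15 from 74592485 to 74593992). No fold is given for it. Genes of the B lineage differed widely on the same arrays: of 16 measured, the wild-type array had 13 above its floor and the knockout array 6, and their summed intensity was 27545 and 6231. Of the 13 detected on either array, 8 were at least 2-fold lower and 0 higher, counting bounds against the floor for genes detected on 1 array. Of all genes detected on either array, 4.07% were at least 2-fold lower by the same count. The B cell transcription factor gene Pax5, seen above the floor only in wild-type cells, was lower by at least 5.48-fold. Cd79a and Igll1 were among those below both floors.

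**Figure D2:**
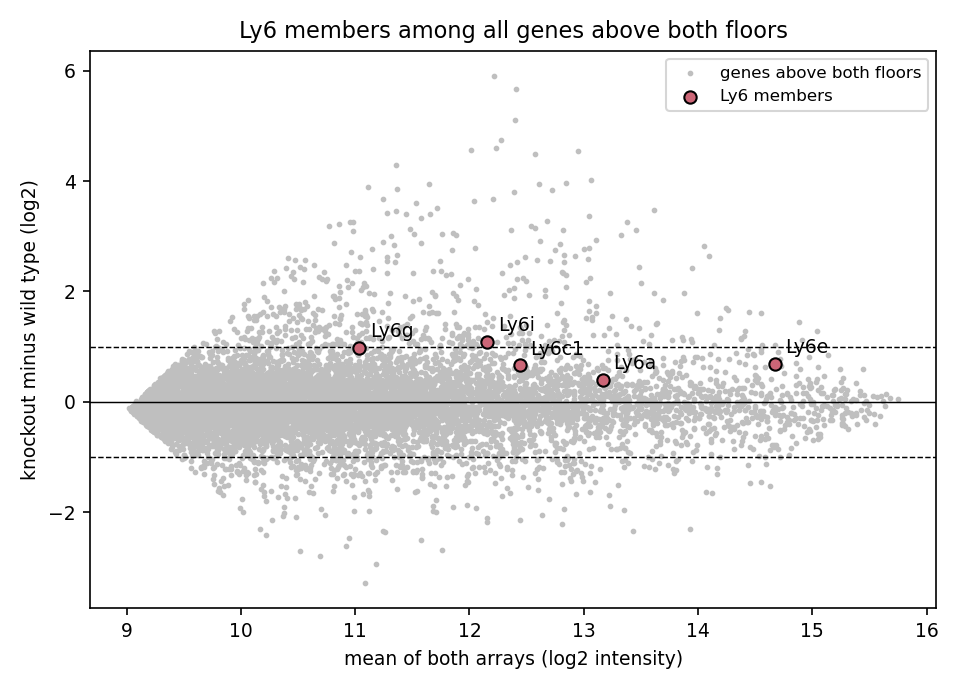
Knockout minus wild type (log2, y axis) against the mean log2 intensity of both arrays (x axis) for the 9319 genes above both floors (grey) and the 5 detected Ly6 members (red, brighter row of Ly6a). Dashed lines mark 2-fold. The members lie between 0.40 and 1.09, above the zero line and inside the cloud of other genes.

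The members lie within 398 kb of chromosome 15, and the rows around them were read for comparison. In the span of the members, widened by 200 kb on each side, there were 39 rows of 30 named genes. From Ly6e onward 15 rows were measured and 11 were above both floors. Of these 11, 10 were higher in the knockout and 1 was lower, where 46.4% of all genes above both floors were higher. The 11 rows belong to 9 genes, and 6 of the rows are those of the members given above. Whether neighbouring genes share signal was not tested. Besides the members and Ly6c2, the higher rows were those of Ly6a2, with differences of 0.84 and 1.05, and Ly6f, with 0.42. The exception was Gm3124, between Ly6a2 and Ly6g, with log2 values of 14.47 and 14.05 and a difference of -0.42. On the other side of Ly6e, toward and past Ly6d, 19 of 24 rows were below both floors. The 4 rows above both floors there were the 2 rows of Lypd2 (0.02 and 0.74), Ly6k (-0.43) and Gml (-0.94), so they had no common direction. The break at Ly6e was chosen after the values were seen.

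**Figure D3:**
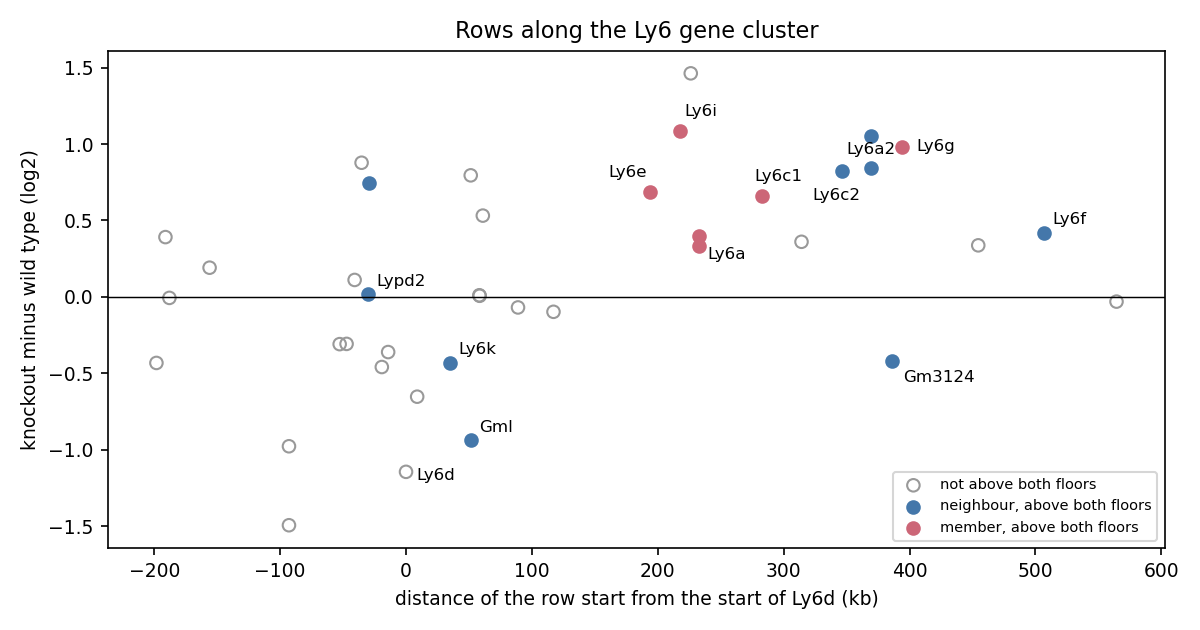
Knockout minus wild type (log2, y axis) of each named row in the window, against the distance of its start from the start of Ly6d (kb, x axis). Filled points are rows above both floors, red for members and blue for neighbours, and open circles are other rows, whose differences are not measured folds. From Ly6e onward 10 of the 11 filled points lie above 0.

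The promoters of 5 genes of this cluster were compared in sequence. The RefSeq promoter table (GRCm38.p6, 250 bases before to 50 after the start) held 2 of the members, Ly6c1 and Ly6g, and 3 neighbours, Ly6c2, Ly6a2 and Ly6f. The sequences of 4 of these, all but Ly6f, are printed to show how alike genes of the cluster are in sequence. A link between likeness of promoters and the differences was not tested. Capitals mark the longest runs of bases found in all 5 promoters, 2 runs of 11 bases each. The first is on either strand of 0.0517% of the 32851 promoters of the table, and the second, nearer the start site, of 0.128%. The regions are chr15:75048788-75049087 (minus strand) for Ly6c1, chr15:75155011-75155310 (plus) for Ly6g, chr15:75111922-75112221 (minus) for Ly6c2 and chr15:75135079-75135378 (minus) for Ly6a2.
Ly6c1: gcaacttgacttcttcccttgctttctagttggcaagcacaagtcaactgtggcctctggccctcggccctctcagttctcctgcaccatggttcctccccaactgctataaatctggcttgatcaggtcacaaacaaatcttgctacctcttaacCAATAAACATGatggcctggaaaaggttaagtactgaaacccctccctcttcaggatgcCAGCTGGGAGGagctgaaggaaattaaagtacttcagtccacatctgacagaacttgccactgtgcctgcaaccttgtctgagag
Ly6g: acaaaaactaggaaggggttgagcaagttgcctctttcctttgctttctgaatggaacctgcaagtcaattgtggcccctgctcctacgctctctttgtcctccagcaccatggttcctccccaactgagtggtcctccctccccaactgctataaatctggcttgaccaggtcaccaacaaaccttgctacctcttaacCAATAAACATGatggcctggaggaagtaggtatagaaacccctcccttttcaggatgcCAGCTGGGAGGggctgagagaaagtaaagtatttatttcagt
Ly6c2: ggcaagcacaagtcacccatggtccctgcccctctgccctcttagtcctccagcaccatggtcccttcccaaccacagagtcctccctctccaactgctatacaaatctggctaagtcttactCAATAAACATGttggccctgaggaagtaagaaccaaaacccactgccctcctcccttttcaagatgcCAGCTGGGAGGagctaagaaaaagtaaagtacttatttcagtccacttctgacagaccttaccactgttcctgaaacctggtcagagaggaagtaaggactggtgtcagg
Ly6a2: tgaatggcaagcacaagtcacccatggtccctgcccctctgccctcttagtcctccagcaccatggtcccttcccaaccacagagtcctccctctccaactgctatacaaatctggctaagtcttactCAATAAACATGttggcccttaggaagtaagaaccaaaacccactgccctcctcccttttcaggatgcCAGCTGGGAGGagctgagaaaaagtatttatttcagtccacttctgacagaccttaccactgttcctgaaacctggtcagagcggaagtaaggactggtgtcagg
In a pairwise alignment with free end gaps, Ly6c1 and Ly6g had 216 of 250 aligned bases in common, or 86.4%. Ly6c2 and Ly6a2 shared 291 of 295, or 98.6%. Over the 10 pairs of the 5 promoters, Ly6c2 and Ly6a2 were the most alike, and Ly6c1 and Ly6c2 were the least alike, with 82.3%. The Ly6f promoter, of a gene with a difference of 0.42, shared 88.7% with Ly6c1 and 87.8% with Ly6g. With Ly6a2 and Ly6c2 it shared 84.7% and 84.6%. Probe sequences were not used here, so the share of each signal that comes from a neighbouring gene was not tested.

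These windows were also searched on both strands for short forms of the sites bound after interferon signalling. The core of the interferon-stimulated response element, GAAA followed after 2 unspecified bases by GAAA, was in none of the 5 promoters or their second listed starts, against 3.44% of all promoters and 12 of 23 listed promoters of the core type I interferon genes described next. TTCNNNGAA, the GAS site of STAT dimers, was also in none, against 8.3% of all promoters and 5 of those 23. The absence says only that these letters are not in these windows.

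Genes of the interferon response had larger differences than the Ly6 members on the same arrays. Of 27 core genes induced by type I interferon, 26 were detected on either array. Of these, 22 exceeded wild type by at least 2-fold and 0 were lower, where 5.56% of all genes detected on either array were at least 2-fold higher. Over the 20 above both floors the median difference was 2.82, and 17 had a difference above that of Ly6i. Ifit2, Ifit1 and Mx1, antiviral genes, were 34.3-fold, 26.6-fold and 23.6-fold higher. At the low end of the list were Bst2, the tetherin gene, with 0.31, Irf9, a subunit of the interferon-activated factor ISGF3, with 0.46, and Oasl1, an oligoadenylate synthetase-like gene, with 0.80. By their brightest rows these last 3 lie near or within the range of the Ly6 members. Other rows above both floors differed by 0.33 and 0.82 for Bst2 and by 0.81 for Irf9. The other row of Oasl1, above the floor in the knockout alone, read 8.25 in wild-type and 10.66 in knockout cells. Of 15 genes of the type II interferon response, 13 were detected on either array, 10 of them higher by at least 2-fold and 0 lower, and the median was 1.99 over the 11 above both floors. In that list Irf8, a myeloid transcription factor gene, differed by -0.27 and Gbp2 by 3.84.

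**Figure D4:**
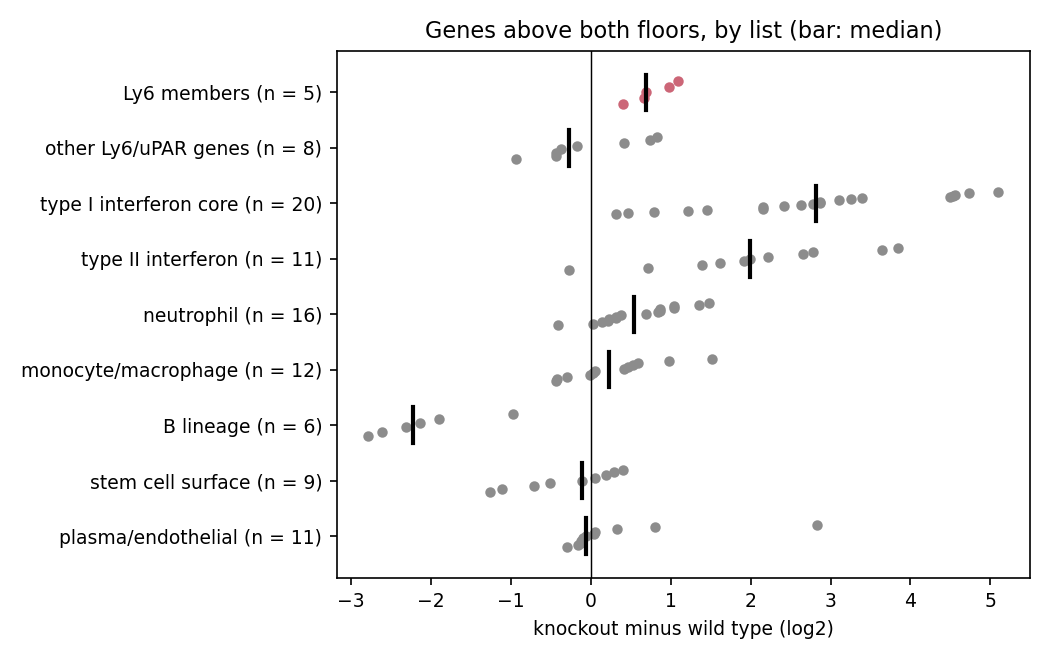
Knockout minus wild type (log2, x axis) of single genes above both floors on 1 array per group, by list, with the median as a bar. The Ly6 members (red, median 0.69) lie below most core type I interferon genes (median 2.82). They overlap the neutrophil (median 0.54) and monocyte/macrophage (median 0.23) lists, among others.

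Markers of the mature cells that carry LY6G and LY6C were also measured. Of 18 neutrophil and granule genes, 16 were above the floor on each array, and their intensities summed to 208634 (wild type) and 293139 (knockout). Of these 16, 4 were higher by at least 2-fold and 0 lower, against 5.33% and 4.16% of all genes above both floors. Their median difference was 0.54. Itgam, an integrin of myeloid cells, was 2.78-fold higher and the protein-arginine deiminase gene Padi4 2.55-fold, whereas the granule enzyme gene Mpo differed by -0.41. Differences of 6 of the 16 fell within the range of the Ly6 members and 8 below it. Of 16 monocyte and macrophage genes, 12 passed the floor on the wild-type array and 14 on the knockout array, with summed intensities of 84442 and 111079. Of the 14 detected on either array, 3 were at least 2-fold higher and 0 lower, against 5.56% and 4.07% of all genes so detected. The median over the 12 above both floors was 0.23, with 5 of them within the range of the Ly6 members and 6 below it. The protease gene Ctss was 2.86-fold higher and the Fc receptor gene Fcgr1, detected in the knockout alone, at least 2.15-fold. Cd14, a co-receptor for bacterial lipopolysaccharide, differed by -0.44. Cebpe, Prtn3 and Cx3cr1 were among those below both floors. The part of these cells in the Ly6 differences was not tested, and more cells of a type cannot be told apart from more RNA per cell in such samples.

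Endothelial and plasma cells, which can carry SCA-1 or LY6C, were represented as well. All 11 of their listed genes were above both floors, with summed intensities of 50780 and 53409 and a median difference of -0.06, which became 0.00093 with rows averaged. The endothelial adhesion gene Pecam1 read 14.16 and 13.86 on the log2 scale, and Cldn5, a tight junction gene, 13.29 and 13.17. The joining chain gene of secreted antibodies, Jchain, was 7.14-fold higher in the knockout. The secretory cell factor gene Xbp1 was 1.75-fold higher by its brighter row, while its other row differed by 0.18. Sdc1 and Prdm1, the other plasma cell genes of the list, differed by -0.10 (other row 0.02) and -0.16. The part of endothelial and plasma cells in the values of Ly6a and Ly6c1 was not tested. Of 12 T and NK cell genes, 10 were detected on either array, 0 of them at least 2-fold higher and 1, the adhesion gene Cd2, lower (3.17-fold). Their median was 0.34, and -0.13 over the 6 above both floors. Of 14 erythroid genes, 12 were detected on either array, all 12 with a negative difference and 5 at least 2-fold lower. Among these 5 were the beta globin gene Hbb-b2 (5.09-fold) and the membrane skeleton gene Ank1 (4.19-fold). The brighter beta globin gene Hbb-b1 differed by only -0.21, and the alpha globin gene Hba-a1 by -0.18. The median over the 11 erythroid genes above both floors was -0.88. Beside these T and NK cell and erythroid counts, 5.56% of all genes detected on either array were at least 2-fold higher and 4.07% lower. A negative difference of any size was found for 5651 of these 10929 genes.

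Other surface genes used with SCA-1 to describe stem cells gave mixed values. Of 13 measured, 9 were above both floors, with a median difference of -0.11 (0.050 with rows averaged). Of these 9, 0 were at least 2-fold higher and 2 lower, against 5.33% and 4.16% of all genes above both floors. Kit, the stem cell factor receptor gene gated together with SCA-1, read 12.12 and 12.42, a difference of 0.30 beside the 0.40 of Ly6a. The adhesion gene Esam also differed by 0.40, and Tek by 0.19. Cd34 differed by -0.51 from its brightest row, its other rows by -0.17 and 0.23, and Cd48 by -0.11. The lower genes were Il7r, the interleukin 7 receptor gene of lymphoid progenitors (2.40-fold), and the integrin gene Itga2b (2.16-fold, its next row -0.72). Slamf1 and Procr, which define LT-HSCs in common gates, were below both floors, so the label could not be checked from them. Of 13 stem cell transcription factor genes, 11 were detected on either array. Of these 11, 0 were at least 2-fold higher and 1 lower, against 5.56% and 4.07% of all genes so detected. That gene was Tal1, detected on the wild-type array alone and at least 2.22-fold lower. Its other rows differed by -0.52 (above the floor in wild-type cells alone) and -1.03 (below both floors), so neither is a measured fold. Over the 8 above both floors the median was 0.16, and Hoxa9 was the lowest of these 8, with -0.60.

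Among the other Ly6/uPAR domain genes of a fixed list, 34 were measured and 10 were detected on either array. The list does not hold Ly6a2, whose higher rows are given with the cluster, or Ly6g6g, which was below both floors. Of these 10, 4 had a positive and 6 a negative difference, where 5277 and 5651 of all 10929 genes detected on either array did. A 2-fold difference in either direction was reached by 0 of the 10 relatives, against 5.56% higher and 4.07% lower of all genes so detected. Outside the chromosome 15 window were Cd59a, a complement inhibitor gene, with -0.44, Gpihbp1, which carries lipoprotein lipase across capillary walls, with -0.18, Ly6g6c with -0.37, and Ly6g6e, detected on the wild-type array alone and at least 1.35-fold lower. Within the window, Ly6g2 passed the floor in the knockout alone, at least 1.07-fold higher. The median over these 10 was -0.28, and this sign turned under some settings, to 0.34 with rows averaged and to 0.42 with the floor at the 99th percentile of the receptor rows. The 10 detected relatives of the list thus had no shared direction.

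With 1 array per group, likeness of pattern reduces to likeness of a single difference. The 3 genes nearest to Ly6a in difference, among 723 within 0.5 log2 units of its mean level, were Anxa5, Ecm1 and Septin7, with differences of 0.40, 0.40 and 0.40. There were 74 genes within 0.1 of Ly6a, so this does not single out any gene.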

How the data were processed

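Total RNA of sorted LT-HSCs was hybridised to single-colour NimbleGen arrays, per the labels' protocols, 1 array per genotype. Each deposited value is a linear intensity that summarises the probes of a transcript row by RMA, as named in the submitters' processing notes. As generally defined, RMA subtracts background and equalises the distributions of arrays, so differences are relative to other genes. The set of arrays that entered this step is not stated. A deposited score beside each value was not used. Most rows (44155) hold 3 probes.

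Intensities were log2-transformed and not normalized again (Python 3.11.15, pandas 2.3.3). Symbols were updated by gene ID with the RefSeq table for 39057 of 41886 named rows. A gene was counted by its brightest row, and every row of a member was read. Genes detected on 1 array got a bound against the other array's floor. Alternatives were other floors, averaged rows, loess centring with a span of 0.3 (statsmodels 0.14.6), thresholds of 1.5-fold and 3-fold, the series-wide table and values raised to the floor. Promoters were aligned with Biopython 1.88. The named genes are the members, detected relatives and neighbours, the highest and lowest of each list, 5 stem cell genes whatever their values, and the 3 nearest to Ly6a, and some list genes are not reported here. Members and lists were chosen with earlier results of these data known. The number of arrays limits the precision.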

Additional observations from a re-analysis of the deposited data

How the results depend on the processing

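The differences of Ly6a, Ly6c1, Ly6e, Ly6g and Ly6i were positive under every alternative run, from 0.37 to 0.44 for Ly6a, 0.66 to 0.69 for Ly6c1, 0.69 to 0.74 for Ly6e, 0.98 to 1.002 for Ly6g and 1.09 to 1.11 for Ly6i. Most alternatives could not change these differences. Other floors and thresholds leave them as they are, averaging rows could alter only Ly6a, and loess centring moved each of them. The ranges therefore say little about how firm the differences are. With loess centring Ly6g reached 2-fold, so that 2 members did. At 1.5-fold there were 4 members higher, and at 3-fold 0. With no floor, 1 member, Ly6d, counted as lower, and with values raised to the floor its difference was -0.12. Genes above both floors at least 2-fold higher and lower numbered 497 and 388, and instead 292 and 242 with the floor at the 99th percentile of receptor rows, 1411 and 1435 with no floor, 1064 and 1158 at 1.5-fold, and 221 and 72 at 3-fold, where 75.4% of calls were higher. With rows averaged, 199 genes were lower. The median of the other Ly6/uPAR genes turned to 0.42 with the higher floor and 0.34 with rows averaged. With rows averaged the medians also turned for the stem cell surface list (0.050) and the plasma and endothelial list (0.00093), and the B lineage median, over genes detected on either array, moved from -2.31 to -1.87. The T and NK median over genes detected on either array turned from 0.34 to -0.16 with the higher floor. The cause of these shifts was not tested. Values were called moved when they shifted by more than the pooled SD between rows of a gene, 0.37, since there are no replicates. Of 176 counts over lists, 26 moved by over 1.5 times. The series-wide table differed by at most 1.277e-06 on the log2 scale. No paired analysis was possible because each group has 1 array.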
